A study of Mus musculus with 6 samples.

Results

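Kallikreins and their partners in desquamation, the shedding of the outermost skin cells, were followed in basal epidermal cells sorted from mouse back skin after deletion of Piezo1, a mechanically gated cation channel. The 10 genes were taken by symbol: the kallikrein proteases Klk5, Klk7, Klk8, Klk10, Klk11, Klk13 and Klk14, the inhibitor Spink5, the activating protease St14 and the substrate Cdsn. All 10 were among the 24972 entries of the deposited table, and 8 of them passed the filter for testing, a mean of at least 10 normalized counts (read counts scaled between libraries). Klk13 and Klk14 did not pass. Poly(A) RNA was sequenced from 3 cKO and 3 control samples. All 6 carried the same genotype, p63CreER; Piezo1 fl/fl; R26-mTmG. It joins a tamoxifen-activated Cre recombinase driven in basal keratinocytes, a floxed Piezo1 gene and a membrane reporter that switches colour after recombination. The cKO mice received tamoxifen as 3 doses of 20 ug, given from postnatal day 45 to day 52, and the control mice received vehicle, so tamoxifen exposure and Piezo1 deletion cannot be told apart. Whether each sample was a different animal is not stated, and the p-values below therefore cover only the variation among these libraries, technical variation included.

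In the epidermis, keratinocytes leave the basal layer, differentiate and become dead corneocytes held together by corneodesmosomes, which are modified desmosomes. Kallikreins are secreted as inactive proenzymes by the upper living layers. Once activated they cut the corneodesmosome proteins, corneodesmosin (Cdsn) among them, so that cells are shed. LEKTI, the product of Spink5, restrains them, and its loss causes Netherton syndrome in humans. Matriptase, the product of St14, is a membrane protease that can start the cascade. Basal cells therefore lie below the layers where the cascade acts.

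All 7 kallikreins are serine proteases, and the coding stretch around the active-site serine is shown because it separates Klk7 from the rest. Capitals mark the codon of the residue at the base of the substrate pocket and then the codon of the active-site serine, which lies 6 codons further on. The sequences are from GENCODE M21 transcripts (GRCm38, chromosome 7, plus strand).
Klk5: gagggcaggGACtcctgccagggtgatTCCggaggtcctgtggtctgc
Klk7: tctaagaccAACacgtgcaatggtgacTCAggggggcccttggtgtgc
Klk8: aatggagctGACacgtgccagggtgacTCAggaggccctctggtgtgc
Klk10: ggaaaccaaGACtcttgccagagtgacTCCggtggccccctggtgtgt
Klk11: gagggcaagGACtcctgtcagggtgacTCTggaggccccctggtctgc
Klk13: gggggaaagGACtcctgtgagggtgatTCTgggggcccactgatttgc
Klk14: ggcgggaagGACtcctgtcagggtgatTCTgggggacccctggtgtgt
The pocket codon was GAC in 6 of the 7 genes, Klk7 being the exception. An aspartate at this place is the mark of trypsin-like specificity, and Klk7 is known as the chymotrypsin-like member. Between the 7 coding sequences the identity over the 21 pairwise alignments was 52.4% to 58.8%. The longest run of identical bases that a member's transcripts shared with those of any of 25 other kallikreins was 16 to 31 bases. The 7 genes lie on chromosome 7 within 160.8 kb, with Klk12, Klk9 and Klk6 among them (positions 43690418 to 43851181, plus strand), and all are protein-coding.

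The 250 bases before the RefSeq start of Klk7, Klk5 and Cdsn are shown (RefSeq windows, GRCm38.p6, plus strand, 5′ to 3′). These genes are among those that differed most between the control libraries and ranked them in the same order. The GENCODE M21 model of Klk5 starts at 43841971, so the Klk5 bases shown lie inside that model. Capitals mark matches to the motifs named after them.
Klk7 (chr7:43811044-43811293): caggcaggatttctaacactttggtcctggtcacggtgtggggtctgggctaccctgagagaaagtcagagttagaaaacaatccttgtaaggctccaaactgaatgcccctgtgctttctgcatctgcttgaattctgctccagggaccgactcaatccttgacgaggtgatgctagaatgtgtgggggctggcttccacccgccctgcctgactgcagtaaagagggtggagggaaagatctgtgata
Klk5 (chr7:43842019-43842268): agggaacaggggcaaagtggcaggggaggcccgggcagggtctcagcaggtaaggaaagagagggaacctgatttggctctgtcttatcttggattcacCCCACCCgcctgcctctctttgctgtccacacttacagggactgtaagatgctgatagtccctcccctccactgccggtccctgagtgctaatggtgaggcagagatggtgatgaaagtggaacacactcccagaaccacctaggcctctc
Cdsn (chr17:35551878-35552127): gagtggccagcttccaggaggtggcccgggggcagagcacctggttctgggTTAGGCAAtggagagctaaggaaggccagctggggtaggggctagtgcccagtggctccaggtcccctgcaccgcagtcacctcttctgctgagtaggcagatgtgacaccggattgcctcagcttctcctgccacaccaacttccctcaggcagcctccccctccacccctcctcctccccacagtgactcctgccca
Windows of 300 bases, 250 before and 50 after the start, were used for 8 of the 10 genes (10 windows), and none for St14 or Spink5. The KLF motif CNCACCC (both strands) was in 3 of the 10 windows and in 30.9% of all 32851 promoter windows. The C/EBP motif TTGCNNAA (both strands) was in 3 of 10 and in 10.8% of all. Its matches were in both windows of Klk11 and in the Cdsn window shown above, so they do not stand for 3 genes. The AP-1 motif TGANTCA (both strands, 7.81% of all windows), the GRHL motif AACCNGTT (both strands, 2.09%) and TATAAA on the gene's strand (8.32%) were in 0 of the 10. These are matches of letters only.

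The libraries differed in depth. Read from the smallest recurring step of the values, cKO replicate 1 held about 1.05 M reads, the other cKO libraries 14.2 and 15.6 M, and the controls 20.8 to 24.5 M. One read thus stood for 12.2 normalized counts in the shallow cKO replicate 1, and for 0.491 to 0.759 elsewhere. Piezo1, the targeted gene, was at 380, 565 and 399 normalized counts in cKO replicates 1, 2 and 3, against 806, 1098 and 1476 in control replicates 1, 2 and 3 (exact permutation p = 0.1, two-sided, the smallest that 3 against 3 can give). Xist, made by the inactive X chromosome of females, was at 7773 and 17829 in cKO replicates 1 and 2 and at 13994 in control replicate 1, and at 1.05 to 2.85 in the other 3 libraries, where the Y-linked Ddx3y was at 1317 (cKO replicate 3) and at 1721 and 2274 (control replicates 2 and 3). The sexes were thus unequally divided, and the part of sex in the values below was not tested. Basal keratinocyte markers were present in every library, all 7 of 7 at 3 reads or more, with a summed level of 504790 to 706940 normalized counts in cKO and 542359 to 582187 in controls.

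For none of the 8 tested genes did the difference between cKO and control pass the test against the spread between libraries. All 8 had lower fitted levels in cKO, with a median log2 fold change (cKO minus control) of -0.60, beside -0.03 over all 12239 genes tested, of which 52.9% were below 0. By limma with Benjamini-Hochberg adjustment, 0 of the 8 passed an adjusted p of 0.05 (adjusted p = 0.744 to 0.857), and 0 of 12239 genes passed, a background of 0%. At an unadjusted p under 0.05 there were 0 of the 8, where all genes gave 4.93%, and limma-voom also gave 0 of the 8 at either threshold. The groups did not overlap for 1 of the 8, St14, which was lower in cKO, beside 5.70% of all genes with lower and 5.16% with higher cKO values.

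Klk5 is the trypsin-like kallikrein held to activate the others. It was at 87.5, 76.7 and 197 normalized counts in cKO replicates 1, 2 and 3, against 113, 182 and 562 in control replicates 1, 2 and 3. Only control replicate 3 stood clear of the cKO values, so the groups overlapped. Its log2 fold change came to -1.04 (SE 0.62; 95% interval -2.47 to 0.40, limma, adjusted p = 0.744). The value in cKO replicate 1 rests on about 7.15 reads.

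Klk7, the chymotrypsin-like partner that cuts corneodesmosin directly, had the largest fitted difference of the 8. It was at 254, 139 and 253 normalized counts in cKO replicates 1, 2 and 3, against 189, 614 and 1401 in control replicates 1, 2 and 3. The cKO values kept within 1.83-fold of each other, whereas the controls spanned 7.43-fold, and control replicate 1 lay below 2 of the 3 cKO libraries. Its log2 fold change came to -1.39 (SE 0.66; 95% interval -2.93 to 0.15, limma, adjusted p = 0.744), which is 2.62-fold lower.

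Klk8 and Klk10 had the smallest fitted differences of the 8. Klk8, also called neuropsin, was at 340, 91.4 and 174 normalized counts in cKO replicates 1, 2 and 3, against 139, 242 and 300 in control replicates 1, 2 and 3. Klk10 was at 217, 83.4 and 117 in cKO replicates 1, 2 and 3, against 116, 154 and 178 in control replicates 1, 2 and 3. For both genes the highest value of all 6 was that of the shallow cKO replicate 1, about 27.8 reads for Klk8 and 17.7 for Klk10, and the lowest was that of cKO replicate 2. The log2 fold changes were -0.30 (SE 0.50, 95% interval -1.46 to 0.86) for Klk8 and -0.19 (SE 0.39, -1.09 to 0.70) for Klk10, and both turned positive without cKO replicate 2, at 0.17 and 0.11. The exons of Klk8 overlap over 382 bases those of 2310002F09Rik, a transcript annotated on the opposite strand and listed at 0, 12.8 and 7.71 normalized counts in cKO replicates 1, 2 and 3, against 7.02, 16.4 and 9.62 in control replicates 1, 2 and 3. The same transcript overlaps the exons of Klk14 over 287 bases. The spans of Klk13 and Klk14 each also overlap another gene annotated on their own strand, and that of St14 a gene on the opposite strand. Exon overlap with these genes was not computed, and the part of such overlaps in the counts was not tested. Whether counting used the strand is not given in the sources used here.

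Klk11, another trypsin-like kallikrein of the epidermis, ran differently from the other proteases. It was at 426, 531 and 397 normalized counts in cKO replicates 1, 2 and 3, against 682, 496 and 580 in control replicates 1, 2 and 3. Here control replicate 1 was the highest library and the controls spanned only 1.37-fold. One control value lay within the cKO range. Its log2 fold change came to -0.38 (SE 0.20; 95% interval -0.85 to 0.10, limma, adjusted p = 0.744).

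Klk13 was near the limit of detection, at 0, 1.44 and 3.04 normalized counts in cKO replicates 1, 2 and 3, against 0.503, 1.47 and 3.63 in control replicates 1, 2 and 3. The highest of these values was about 6.02 reads. Klk14, whose human counterpart can activate KLK5, was listed at 0 in all 6 libraries. A count of 0 allows up to 3 reads, which is 36.7, 2.16 and 2.28 normalized counts in cKO replicates 1, 2 and 3 and 1.47 to 1.81 in the controls, for counting error only. No fold change is given for either gene.

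**Figure D1:**
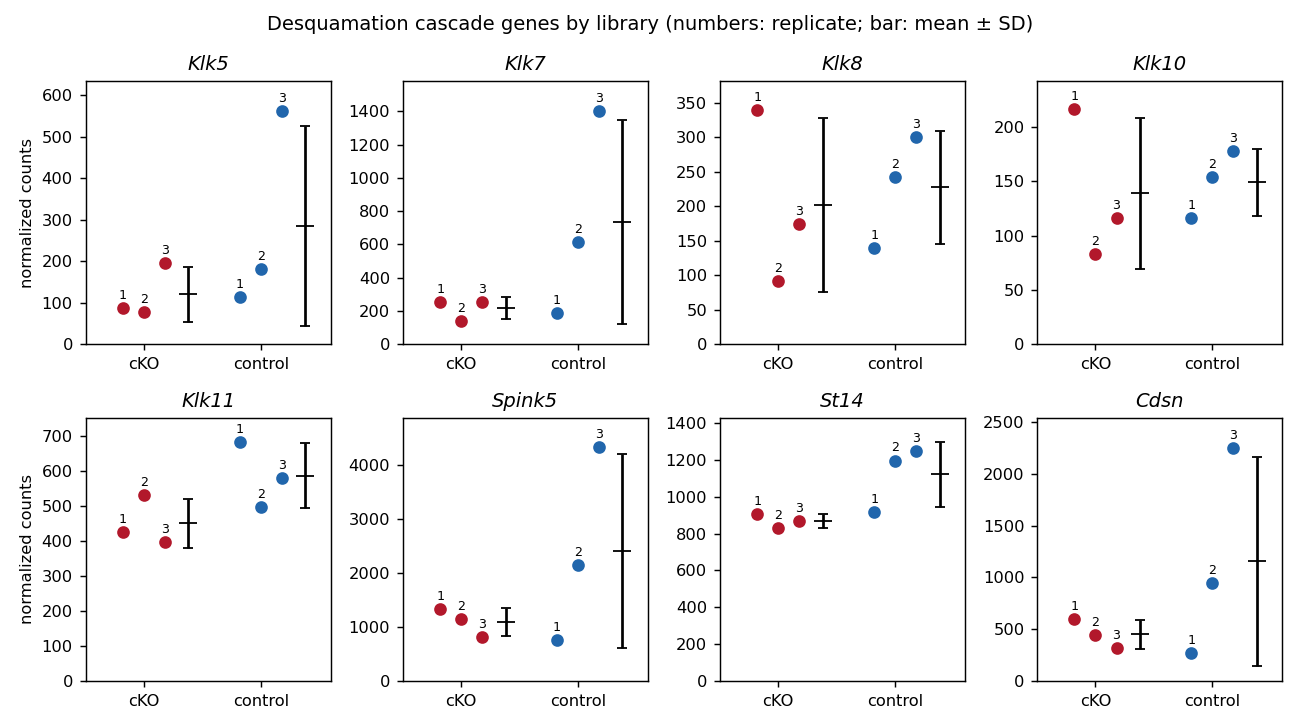
Normalized counts of the 8 tested genes in each library, with the replicate number above each point and the mean ± SD (n = 3) beside it, each panel on its own linear axis from 0. For Klk5, Klk7, Spink5 and Cdsn control replicate 3 stands far above the other libraries, at 562, 1401, 4325 and 2250, while the St14 values of cKO (830 to 906) all lie below those of controls (918 to 1250).

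St14 (chromosome 9, 31089402 to 31131853, minus strand), which encodes the membrane protease matriptase upstream of the kallikreins, was the steadiest gene and the one whose groups did not overlap. It was at 906, 830 and 866 normalized counts in cKO replicates 1, 2 and 3, against 918, 1197 and 1250 in control replicates 1, 2 and 3. Control replicate 1 exceeded the highest cKO library only slightly. Its log2 fold change came to -0.36 (SE 0.18; 95% interval -0.78 to 0.06, limma, adjusted p = 0.744), a level 1.28-fold lower.

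Spink5, the inhibitor gene (chromosome 18, 43963235 to 44022501, plus strand), was at 1329, 1142 and 819 normalized counts in cKO replicates 1, 2 and 3, against 751, 2150 and 4325 in control replicates 1, 2 and 3. The lowest and the highest library were both controls, and all 3 cKO libraries lay between them. Its log2 fold change came to -0.83 (SE 0.57; 95% interval -2.16 to 0.50, limma, adjusted p = 0.744).

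Cdsn (chromosome 17, 35552128 to 35557180, plus strand), the corneodesmosome protein that the kallikreins cut, followed Spink5 closely. It was at 594, 439 and 317 normalized counts in cKO replicates 1, 2 and 3, against 267, 949 and 2250 in control replicates 1, 2 and 3. Again the cKO libraries all lay within the range of the controls, which spanned 8.43-fold. Its log2 fold change came to -0.93 (SE 0.69; 95% interval -2.53 to 0.67, limma, adjusted p = 0.744).

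**Figure D2:**
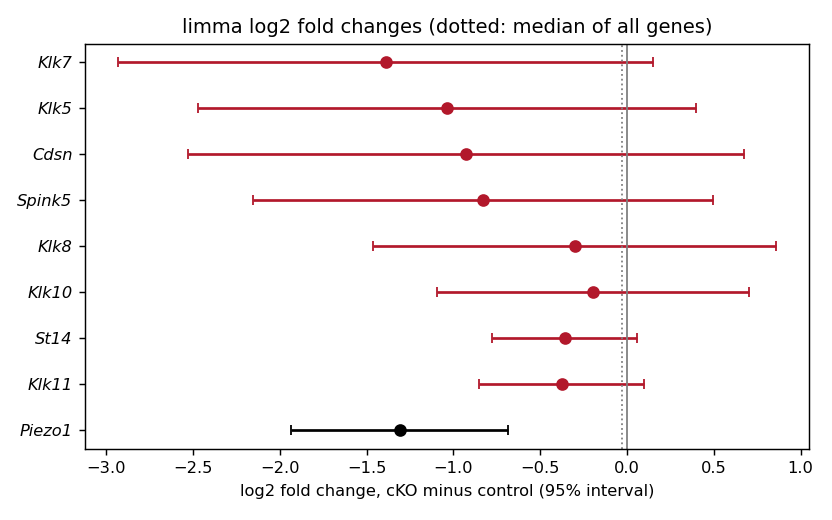
Points show limma log2 fold changes on log2(value + 1), cKO minus control, with 95% intervals, for the 8 genes and for Piezo1. The intervals of the 8 genes all include 0, from Klk7 at -1.39 to Klk10 at -0.19, while that of Piezo1 runs from -1.93 to -0.68.

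Several of the 8 genes differed widely among the control libraries, in like order. Control replicate 3 was the highest control for 7 of the 8 genes and control replicate 1 the lowest for 7 of the 8, Klk11 being the exception in both counts. The controls stood in the order 1, 2, 3 from low to high for 7 of the 8 genes (87.5%), against 26.2% of all genes tested. The highest control over the lowest was 8.43 for Cdsn, 7.43 for Klk7, 5.76 for Spink5 and 4.98 for Klk5, and it was 1.36 for St14 and 1.37 for Klk11, where the median of all genes was 1.35 (with 1 added to each value). Only 1.37% of tested genes had a control ratio as large as that of Cdsn, and 2.67% one as large as that of Klk5. Over the 3 cKO libraries the same ratio was 1.88 for Cdsn, 1.83 for Klk7, 1.62 for Spink5 and 2.56 for Klk5, where the median of all genes was 1.75.

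Markers of suprabasal and granular keratinocytes, the layers above the basal one, moved with this order. All 14 tested markers of 16 listed stood in the order of control replicates 1, 2 and 3. The summed level of the 15 measured was 90818 to 105576 normalized counts in cKO and 47486 to 122690 in controls, most of it Krt1 and Krt10, and Lce1a1 and Rptn were at 0 in cKO replicate 1 and Rptn in cKO replicate 3. The median of the markers, relative to the control mean on the log2 scale, was -0.97, -0.30 and -0.43 in cKO replicates 1, 2 and 3, against -1.33, 0.19 and 1.05 in control replicates 1, 2 and 3. The median of the 8 cascade genes was -0.46, -0.86 and -0.45 in cKO replicates 1, 2 and 3, against -0.81, 0.13 and 0.82 in control replicates 1, 2 and 3. Of the 14 tested markers 10 had lower and 4 higher fitted levels in cKO (median log2 fold change -0.52). Krt1, an early suprabasal keratin, had a log2 fold change of 0.99 (SE 0.35) and Krt10 of 0.40 (SE 0.34). Flg2 and Lor, made in the granular layer, gave -1.95 (SE 0.96) and -1.84 (SE 1.03). The remaining higher markers were Krtdap at 0.48 (SE 0.42) and Calm4 at 0.54 (SE 0.57). Sbsn, Ivl and Casp14 gave -0.07, -0.19 and -0.14, each smaller in size than its SE. Tgm1 gave -1.99 (SE 1.01), Tgm3 -1.49 (SE 0.64), Hrnr -1.79 (SE 1.12), Dsc1 -0.86 (SE 0.61) and Lce1a1 -4.40 (SE 1.59). In cKO replicate 1, where 1 read is worth 12.2 normalized counts, Tgm1 was at 12.8 and Lce1a1 at 0. Lce1a1 was at 3.74 and 8.18 in cKO replicates 2 and 3, so the fold changes of Tgm1 and Lce1a1 rest partly on values near the floor. Markers of other cells also differed in level between libraries. The summed level of the 7 sebaceous gland markers was 3460, 4388 and 7332 normalized counts in cKO replicates 1, 2 and 3, against 4107, 10942 and 11425 in control replicates 1, 2 and 3, so that control replicate 1 was again the lowest control, and Elovl3 was at 0 in cKO replicate 1. That of the 7 upper hair follicle markers was 30403, 20423 and 24352 in cKO replicates 1, 2 and 3, against 15796, 23735 and 30863 in control replicates 1, 2 and 3, with the controls in the order of the cascade genes. The summed level of the 8 T cell markers was 4618, 2936 and 4221 normalized counts in cKO replicates 1, 2 and 3, against 3205, 1756 and 1579 in control replicates 1, 2 and 3. That of the 7 Langerhans cell markers was 3600, 2752 and 12723 in cKO replicates 1, 2 and 3, against 1692, 2216 and 2112 in control replicates 1, 2 and 3, so that every cKO library lay above the controls. Ptprc and Lyz2 were at 0 in cKO replicate 1, and Lyz2 in control replicate 3. The part of suprabasal, sebaceous, hair follicle, T and Langerhans cells in the values of the cascade genes was not tested. In sorted bulk samples, fewer cells of a type and less RNA per cell cannot be told apart.

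**Figure D3:**
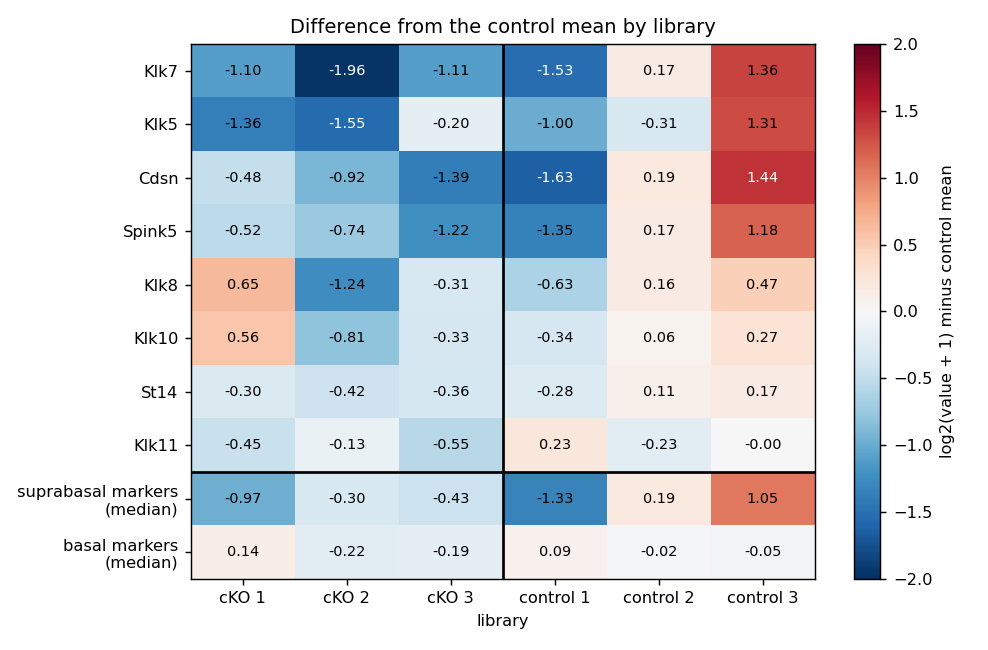
Each cell gives the log2(value + 1) of a gene in a library minus its mean over the 3 controls, blue for lower and red for higher, with the medians of 15 suprabasal and 7 basal markers in the bottom rows. Control replicates 1 and 3 stand at opposite ends for Klk7 (-1.53 and 1.36), Cdsn (-1.63 and 1.44) and the suprabasal markers (-1.33 and 1.05), whereas the basal markers stay between -0.22 and 0.14.

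The fitted differences depended on which control was counted. Without control replicate 3 the log2 fold changes shrank to -0.71 for Klk7, -0.38 for Klk5, -0.24 for Spink5 and -0.21 for Cdsn, and the median of the 8 to -0.26. Without control replicate 1 they were -2.15, -1.53, -1.50 and -1.74 for the same genes, and the median was -1.06. There 5 of the 8 had an unadjusted limma p under 0.05 (Klk5, Klk7, Spink5, St14 and Cdsn, 0.00231 to 0.0427). In that fit 1029 of all 12238 genes tested lay under 0.05, against 603 of 12239 with all 6 libraries. None of the 8 passed adjustment there (smallest adjusted p of the 8 = 0.431). Leaving out the shallow cKO replicate 1 gave -1.54 for Klk7, -0.87 for Klk5, -0.98 for Spink5 and -1.15 for Cdsn. It took Klk8 to -0.78 and Klk10 to -0.57, where all libraries gave -0.30 and -0.19. St14 stayed between -0.50 and -0.27 and Klk11 between -0.50 and -0.26 whichever library was left out.

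**Figure D4:**
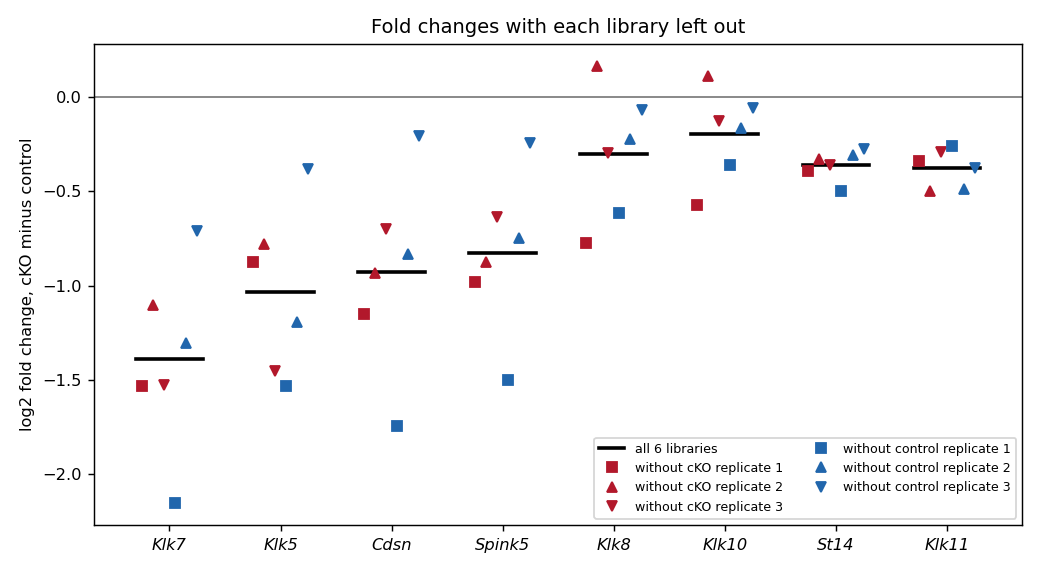
Black bars are the log2 fold changes (cKO minus control) with all 6 libraries, and symbols those with 1 library left out, red for cKO and blue for control libraries. Control replicates 1 and 3 pull Klk7, Klk5, Cdsn and Spink5 in opposite directions (-2.15 and -0.71 for Klk7), while St14 keeps between -0.50 and -0.27 and Klk11 between -0.50 and -0.26.

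Protease, substrate and inhibitor were also set against each other within each library as ratios of normalized counts per kb of exon. These ratios were chosen after the values were seen and are given without a test. Cdsn per Spink5 varied least of the ratios given here, at 0.799, 0.687 and 0.690 in cKO replicates 1, 2 and 3, against 0.635, 0.788 and 0.929 in control replicates 1, 2 and 3. Klk7 per Spink5 was 0.483, 0.308 and 0.778 in cKO replicates 1, 2 and 3, against 0.634, 0.721 and 0.818 in control replicates 1, 2 and 3. It was thus lower in 2 cKO libraries than in any control, and cKO replicate 3 lay among the controls. Klk5 per Spink5 ranged from 0.236 to 0.860 in cKO and from 0.303 to 0.538 in controls, so the widest spread was in cKO. Klk11 per Spink5 was 1.05 to 1.58 in cKO and 0.438 to 2.96 in controls. Among pairs of the 8 genes, Spink5 and Cdsn had the most alike profiles over the 6 libraries, with a root mean square difference of 0.18 between their centred log2 values, then Klk8 and Klk10 with 0.23, and Klk7 and Klk11 the least alike with 1.13.

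**Figure D5:**
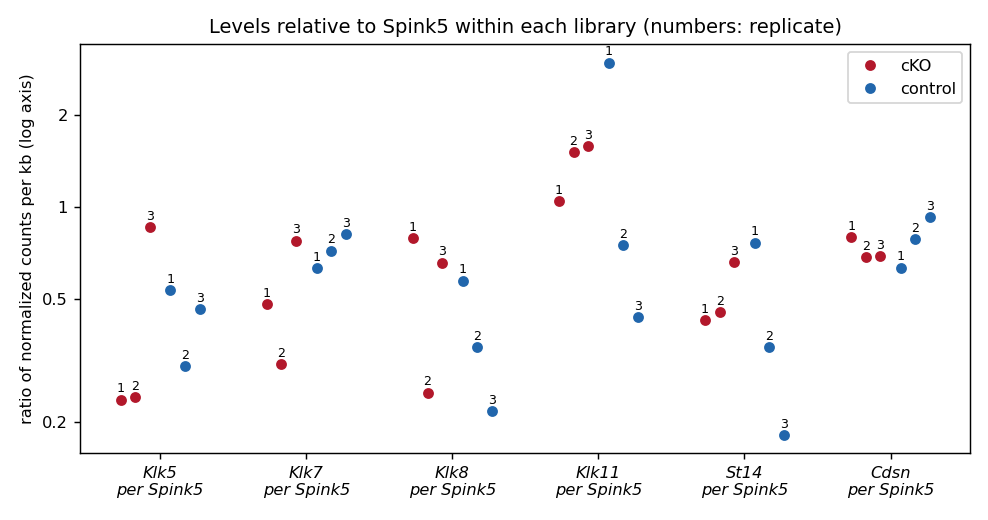
Ratios of normalized counts per kb to those of Spink5 in the same library, on a log axis, with replicate numbers above the points, red for cKO and blue for control. Cdsn per Spink5 keeps between 0.635 and 0.929 in all 6 libraries, while Klk11 per Spink5 runs from 0.438 in control replicate 3 to 2.96 in control replicate 1.

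Levels between genes were compared per kb of exon (GENCODE M21, all annotated exons of a gene merged, which lowers the value of St14 with its 7637 bases). In cKO the highest was Klk11, at 308 ± 47.8 normalized counts per kb (SD, n = 3), followed by Spink5 at 229 ± 53.8 and Cdsn at 168 (118 to 222 in the 3 libraries). In controls Spink5 came first at 503 ± 376, then Cdsn at 431 ± 376, Klk11 at 399 ± 63.3 and Klk7 at 388 ± 325. Klk8, Klk7, St14, Klk10 and Klk5 followed in cKO between 131 ± 82.1 and 90.1 ± 49.7, and Klk5, Klk8, St14 and Klk10 in controls between 214 ± 181 and 109 ± 22.6. In both groups the ranges of all neighbours in these orders overlapped, so no neighbours were separated by more than their spread. Within each of the 3 cKO libraries Klk11 was above Spink5 and Spink5 above Cdsn, and within each of the 3 controls Spink5 was above Cdsn. Klk13 was far below, at 0.651 ± 0.663 in cKO and 0.813 ± 0.697 in controls.

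Genes around the cascade were taken from 6 lists, in which 56 of 76 genes were tested. None passed adjustment in limma. Of the 56, 47 had a lower and 9 a higher fitted level in cKO (median log2 fold change -0.28), where 52.9% of all genes were lower. The lists were written with earlier results of these data known, so such counts only describe them. At an unadjusted limma p under 0.05 there were 4, all lower (Plat, Serpinb2, Epcam and Tslp), beside 3.46% of all genes in that direction. The groups did not overlap for 5 of the 56, all lower in cKO (5.70% of all genes): Plat, Lgmn, Epcam, Tslp and the serine protease gene Prss22, the last of which is named for this after its values were seen. Without cKO replicate 1 the count of lower fitted levels was 40 of 56 (median -0.21), and without control replicate 3 it was 37 of 55 (median -0.17). Of the other kallikreins 1 of 7 was tested, Klk9. It was listed at 0 in cKO replicate 1, where 1 read is worth 12.2, and was at 20.3 and 25.1 normalized counts in cKO replicates 2 and 3, against 18.7, 74.9 and 146 in control replicates 1, 2 and 3. Control replicate 1 was its lowest control, as it was for Klk7 and Klk5. The log2 fold change of Klk9 was -2.88 with all libraries and -1.36 without cKO replicate 1.

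Among other activating proteases 7 of 9 tested had lower and 2 higher fitted levels (median log2 fold change -0.46, and -0.19 without control replicate 3). The proprotein convertase gene Furin was at 1274, 1182 and 1105 normalized counts in cKO replicates 1, 2 and 3, against 1132, 1806 and 2115 in control replicates 1, 2 and 3 (log2 fold change -0.46, SE 0.25, and -0.27 without control replicate 3 or -0.72 without control replicate 1). Plat, tissue plasminogen activator, gave -1.31 (SE 0.52, limma, unadjusted p = 0.0384) with groups that did not overlap, but -0.66 without cKO replicate 1, where it rests on about 9.03 reads. The membrane protease gene Tmprss4 gave -0.23 (SE 0.30), and 0.11 without control replicate 3. Among protease inhibitors 10 of 14 had lower and 4 higher fitted levels (median -0.26, and -0.14 over 13 genes without control replicate 3). Serpinb2, an inhibitor of plasminogen activators, was at 10887, 27127 and 16444 normalized counts in cKO replicates 1, 2 and 3, against 19186, 45271 and 65565 in control replicates 1, 2 and 3 (-1.18, SE 0.51). Of the 3 cKO values, 2 lay below every control. Serpinb5 gave -0.23 (SE 0.25), and -0.06 without control replicate 3. Wfdc5, listed at 0 in cKO replicate 1, was at 17.1 and 30.7 in cKO replicates 2 and 3, against 20.5, 65.6 and 174 in control replicates 1, 2 and 3.

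Among other proteases of cornification 8 of 10 had lower and 2 higher fitted levels (median log2 fold change -0.15), and without control replicate 3 it was 5 and 5 (median -0.01). Asprv1, the retroviral-like protease that processes filaggrin, was at 504, 457 and 795 normalized counts in cKO replicates 1, 2 and 3, against 401, 2122 and 4492 in control replicates 1, 2 and 3 (-1.46, SE 0.78, and -0.70 without control replicate 3 or -2.44 without control replicate 1). Its controls ranked as those of Klk7 and Cdsn did. Legumain, Lgmn, gave -0.54 (SE 0.28) with groups that did not overlap, but -0.27 without cKO replicate 1, where it rests on about 9.16 reads, and -0.22 in limma-voom. The cathepsin gene Ctsb (-0.04, SE 0.18) and the calpain gene Capn1 (0.14, SE 0.20) had fitted differences smaller than their SE. Among desmosome proteins 13 of 14 had lower and 1 higher fitted levels (median -0.21), but without cKO replicate 1 it was 8 and 6 (median -0.04). The desmosomal cadherins Dsg3 and Dsc2 gave -0.76 (SE 0.38) and -1.28 (SE 0.71). Without cKO replicate 1, where Dsc2 rests on about 0.932 reads, they gave -0.32 and -0.52. The plaque proteins Dsp and Jup gave -0.20 (SE 0.28) and -0.23 (SE 0.25), and -0.09 and -0.04 without control replicate 3.

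In the last list, of a receptor, cytokines and other genes linked to the proteases, 8 of 8 tested had lower fitted levels in cKO. Their median log2 fold change was -1.28, beside -0.03 over all genes. Without the shallow cKO replicate 1 the count was 6 of 8, with a median of -0.36. The part of the cascade in the levels of these genes was not tested. F2rl1, the protease-activated receptor that Klk5 can cleave, was at 1106, 2121 and 1617 normalized counts in cKO replicates 1, 2 and 3, against 1867, 2442 and 2491 in control replicates 1, 2 and 3 (log2 fold change -0.53, SE 0.27, and -0.28 without cKO replicate 1). One cKO library lay within the control range. Epcam, whose protein matriptase cleaves, was at 1048, 1812 and 1747 in cKO replicates 1, 2 and 3, against 2080, 3738 and 3672 in control replicates 1, 2 and 3 (-1.03, SE 0.31, limma, unadjusted p = 0.0111, adjusted p = 0.744). Tslp, the alarmin that rises in LEKTI-deficient skin through that receptor, gave -1.67 (SE 0.35), and -1.84 to -1.40 with any 1 library left out. Neither of the last 2 genes had overlapping groups.

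Genes most like the cascade were taken by the smallest root mean square difference from the median centred profile of the 8 genes over the 6 libraries, among 10241 genes with a mean of at least 50. They included 9130008F23Rik (0.10), Tmcc3 (0.16), the spermine oxidase gene Smox (0.18) and Elovl1, which elongates very long fatty acids (0.18). Tmcc3 was at 772, 711 and 751 normalized counts in cKO replicates 1, 2 and 3, against 589, 1350 and 1964 in control replicates 1, 2 and 3. Elovl1 was at 1288, 942 and 870 in cKO replicates 1, 2 and 3, against 817, 1393 and 2162 in control replicates 1, 2 and 3. In both genes control replicate 1 was the lowest of the 6 libraries.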

How the data were processed

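Poly(A) libraries were prepared with a directional kit, per the labels' protocols. STAR, DESeq2 and GRCm38 are named in the submitters' processing notes. Annotation, read counter, strand setting and filters were not given in the sources used here. The signal in the deposited table is a normalized count for each gene in each library. That it is reads divided by a factor was read from the values. The factor varies slightly by gene, so whole reads could not be recovered, and depths are approximate.

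Groups and replicate numbers came from the sample titles. Values were tested as log2(value + 1) with limma 3.58.1 in R 4.3.3 (trend and robust options, statmod 1.5.0). Adding 1 shrinks changes of low genes, but a 0 in the shallow cKO replicate 1 can enlarge them. Klk9, at 0 there, had a log2 fold change of -2.88 with 1 added, -1.47 with 16 added and -1.45 in limma-voom. The two-sided fit had no covariates and used all 6 libraries, with Benjamini-Hochberg adjustment over 12239 genes with a mean of at least 10. The fit was run on simulated data as a check of the code only. The simulated noise was smaller than the control spread of genes such as Cdsn and Klk7. Members and lists were chosen with earlier results of these data known. Named genes are the 10 members, Piezo1, per list the 2 most abundant and the 2 of smallest p, and the 5 most alike, of which 1 is not reported here. Single suprabasal markers, Prss22, Xist, Ddx3y, 2310002F09Rik and the within-library ratios were added after their values were seen. Flg was not matched. The table's 26 entries with a date in place of a symbol were not named. The labels do not state that the replicate numbers pair samples, so the numbers were not taken as pairs. Correlations between libraries could not decide this. Alternatives were pseudocounts, filters, scalings, library weights, limma-voom, a replicate block and leaving out each library.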

Additional observations from a re-analysis of the deposited data

How the results depend on the processing

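With each library left out, 0 to 1 genes were called over all genes (1 without cKO replicate 2), and 0 in every other setting. The counts of called cascade and related genes were 0 in every setting, and the median log2 fold change of the cascade genes ran from -1.06 to -0.26 with a library left out and from -0.69 to -0.51 otherwise. Piezo1 ran from -1.53 to -1.09 and from -1.35 to -1.13. At an unadjusted limma p under 0.05 there were 3 cascade genes with library weights, beside 1973 of all 12239 genes. The 3 were Klk7, Spink5 and St14 (smallest adjusted p = 0.204). With the replicate number as a block there were 2, Klk5 (unadjusted p = 0.0188) and Klk7 (0.0399), beside 848 of all 12239. The main fit had 603 of 12239. With the block the count of called genes stayed at 0 and the median at -0.60. Deviations of same-numbered libraries correlated across genes at 0.0945, -0.154 and 0.0686, and those of differently numbered libraries at -0.168 to 0.175. With so few libraries these values can neither show nor exclude pairing. Signs turned, with a library left out, for Klk8 (-0.78 to 0.17), Klk10 (-0.57 to 0.11), Tmprss4 (-0.50 to 0.11), Ctsb (-0.12 to 0.021) and Dsp (-0.37 to 0.012), and for Ctsb also with equal totals (0.0024) and quantile normalization (0.10). limma-voom moved the median of all genes to 0.10. Count models were not run, since whole reads could not be recovered. In cKO replicate 1, 14.9% of tested genes lay under 3 reads, against 0.253% to 0.433% in the other libraries, which limits what it can show for the weaker genes.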
